A study of Mus musculus with 4 samples.

Results

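Among immune cells sorted from mouse pancreatic tumours, 190 of 14855 kept cell barcodes passed a gate for myeloid cells with RNA of the cell cycle genes Mki67 or Top2a. Kept barcodes had at least 200 genes, at least 500 UMIs (unique molecular identifiers, each standing for 1 captured RNA molecule) and at most 10% mitochondrial UMIs. A cell was chosen by raw UMIs: Mki67 and Top2a summing to at least 2, no Cd3e or Cd3d (T cell receptor complex), no Cd79a (B cell receptor complex), at most 1 of the epithelial keratins Krt8 and Krt18, and either at least 10 of H2-Ab1 (a chain of MHC class II) or at least 5 of Lyz2 (lysozyme). Of the 190 cells, 51 and 45 came from the AT38 libraries 1 and 2, and 40 and 54 from the vehicle libraries 1 and 2. By H2-Ab1 alone 101 were chosen, and 12 had at least 2 UMIs of lymphoid genes that the choice did not read. The gate thus does not settle that each cell is myeloid. The 190 cells are called positive cells below. The same gate held 2058 cells with no Mki67 or Top2a UMI, called negative cells, of which 542 and 410 were in AT38 libraries and 384 and 722 in vehicle libraries.

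The mice were C57BL/6 and carried orthotopic tumours of 1 pancreatic cancer line, B6KPC3, that were 7 days old when treatment began. AT38, a compound known here by its code name, was given at 30 mg/kg per day in 1% carboxymethyl cellulose by daily paired intraperitoneal injections for 7 days, and control mice received that vehicle alone. Each group has 2 libraries, each a pool of 4 mice enriched for CD45+ cells by flow sorting and processed with 10x Genomics 3′ chemistry. The series title names nitrosative stress and cytotoxic T lymphocytes. A p-value below therefore reflects how far such pools spread, and says nothing of single mice.

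Conventional dendritic cells present antigen to T cells and arise from precursors that still divide in tissues in response to the receptor Flt3. Their cDC1 branch carries Xcr1 and Clec9a and cross-presents antigen of dead cells, whereas the cDC2 branch, marked by Cd209a, presents mainly to CD4+ T cells. Macrophages that make the complement component C1q can divide in place, while Ly6c2 marks inflammatory monocytes and is found in their marrow precursors. Genes of DNA replication peak in S phase under E2F factors, and mitotic genes peak in G2 and M phase through promoters with CHR elements (cell cycle genes homology regions) and CCAAT boxes.

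Both genes that chose the cells, and 1 gene of each phase list described below, are shown with their promoters because the 2 phase lists are read against each other below and their promoters are known to differ in the capitalised letters. The windows run from 250 bases before to 50 after the start of the gene, from RefSeq on GRCm38.p6, all on the minus strand. Mki67 lies at chr7:135716330-135716629, Top2a at chr11:99024140-99024439, Ccnb2 (cyclin B2, which drives entry into mitosis) at chr9:70421505-70421804 and Mcm6 (a subunit of the replicative helicase) at chr1:128359656-128359955. Capitals mark TTTGAA (the CHR letters) and CCAAT, on either strand, in the first 3, and TTTCGCGC or TTTGGCGC (E2F letters), on either strand, in Mcm6.
Mki67: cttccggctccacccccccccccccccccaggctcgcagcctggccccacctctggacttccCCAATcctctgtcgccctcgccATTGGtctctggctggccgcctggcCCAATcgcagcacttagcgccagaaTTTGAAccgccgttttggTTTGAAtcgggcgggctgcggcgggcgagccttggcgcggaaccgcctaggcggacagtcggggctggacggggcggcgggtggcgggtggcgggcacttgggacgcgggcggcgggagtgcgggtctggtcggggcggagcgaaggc
Top2a: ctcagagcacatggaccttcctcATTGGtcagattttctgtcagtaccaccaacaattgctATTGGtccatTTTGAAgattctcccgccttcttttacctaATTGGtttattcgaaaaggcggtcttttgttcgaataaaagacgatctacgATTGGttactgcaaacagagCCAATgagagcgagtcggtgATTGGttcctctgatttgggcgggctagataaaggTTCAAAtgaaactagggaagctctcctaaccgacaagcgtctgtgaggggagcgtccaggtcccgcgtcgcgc
Ccnb2: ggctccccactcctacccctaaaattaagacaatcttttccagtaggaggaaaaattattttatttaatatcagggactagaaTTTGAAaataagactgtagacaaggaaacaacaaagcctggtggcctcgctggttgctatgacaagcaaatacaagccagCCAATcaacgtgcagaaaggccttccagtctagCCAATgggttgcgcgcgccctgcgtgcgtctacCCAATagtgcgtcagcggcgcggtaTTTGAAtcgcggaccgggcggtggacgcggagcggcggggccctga
Mcm6: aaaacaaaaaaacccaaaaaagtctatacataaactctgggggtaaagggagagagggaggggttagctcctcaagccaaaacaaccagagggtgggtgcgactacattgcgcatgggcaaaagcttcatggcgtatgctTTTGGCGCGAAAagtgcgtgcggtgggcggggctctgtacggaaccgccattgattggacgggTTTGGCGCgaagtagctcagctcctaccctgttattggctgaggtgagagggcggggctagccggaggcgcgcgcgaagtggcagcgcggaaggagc

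The Mki67, Top2a and Ccnb2 windows each held 2 CHR matches, with 3, 6 and 3 CCAAT matches, and no E2F match. Mcm6 held 3 E2F matches, of which the 2 farther from the start overlap, no CHR match and 2 CCAAT matches that are not capitalised. Of 29 windows found for 27 of 32 genes of the G2 and mitosis list, 75.9% held CHR letters, 89.7% CCAAT and 3.45% E2F letters. Of 28 windows found for 23 of 26 genes of the S phase list, 10.7% held CHR letters, 57.1% CCAAT and 32.1% E2F letters. Over all 32851 windows the shares were 17.9%, 37.4% and 0.813% for CHR, CCAAT and E2F letters. A match says only that these letters are in the window.

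Deposited library totals were 30232623 and 24294215 UMIs with AT38 and 24875092 and 34386076 with vehicle. The summed UMIs of positive cells were 991713 and 879354 with AT38 and 858342 and 1031734 with vehicle. Positive cells had a median of 20198 UMIs, against 7857.5 in negative cells. By library their medians were 19535 and 19949 UMIs with AT38 and 23216.5 and 18664 with vehicle. Of 17 barcodes found in more than 1 library, 0 were positive cells, and 2 positive cells (AT38 library 1 and vehicle library 2) were among those with the highest doublet scores.

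Because the choice rests on as few as 2 UMIs of 2 genes, it was set beside genes it did not read. The lists were 26 S phase genes (Mcm2 to Mcm6, Pcna, Rrm2 and others) and 32 G2 and mitosis genes (Ccnb2, Cdk1, Birc5, Cenpf and others), without Mki67 and Top2a. A cell was called S/G2-high when either list passed the 99th percentile of negative cells, which was 21.4 S phase UMIs or 29.4 G2 UMIs per 10000 UMIs of the cell. By this measure, set after the data were seen, 106 of 190 positive cells (55.8%, exact binomial 95% interval 48.4 to 63.0%) were S/G2-high. Intervals cover counting error only.

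The share followed the number of Mki67 and Top2a UMIs. Among the 56 positive cells just inside the choice, with a sum of 2, 10 (17.9%) were S/G2-high, against 11 of 263 gate cells (4.18%) just outside it with a sum of 1. With a sum of 3 the share was 11 of 30 (36.7%), with 4 to 9 it was 23 of 42 (54.8%), and with 10 or more it was 62 of 62. Negative cells, which set the limit, gave 1.94%. The S/G2-high positive cells had medians of 4 Mki67 and 7.5 Top2a UMIs, and the other 84 had medians of 2 and 0, with no Top2a UMI in 45. Other cycle genes were thus high in 106 of the cells and under both limits in the other 84, so the whole is called by the genes that chose it and not cycling cells.

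**Figure D1:**
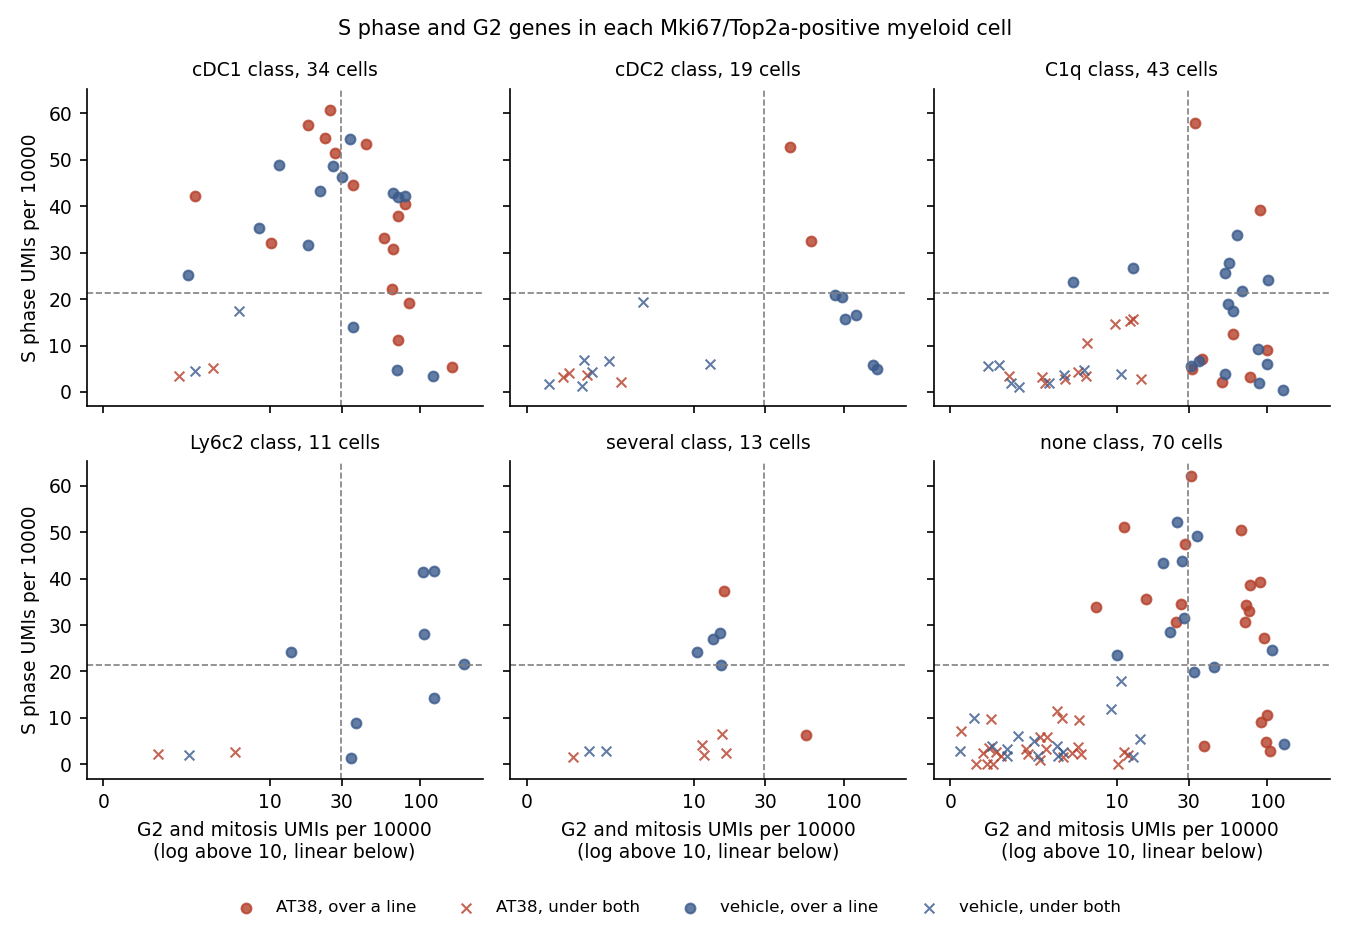
G2 and mitosis list UMIs (horizontal axis, log above 10 and linear below) against S phase list UMIs (vertical axis, linear), both per 10000 UMIs of the cell, for each of the 190 Mki67/Top2a-positive cells, in a panel per lineage class, with AT38 red and vehicle blue. Dashed lines mark the 99th percentile of negative cells (29.4 G2 and 21.4 S phase UMIs). Crosses are the 84 cells under both, of which 4 are in the cDC1 class and 40 met no lineage class.

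Levels are given as CPM, counts scaled to 1000000, here with UMIs of each kind of cell pooled over the 4 libraries. Taking all positive cells together, every S phase gene (26 of 26) and every G2 gene (32 of 32) was higher than in negative cells. The medians were 2.86 and 4.33 on the log2 scale of CPM. Values given by library below are scaled within each library. Ccnb2 was higher by 4.49, the survivin gene Birc5 by 5.52, the mitotic kinase gene Cdk1 by 4.66 and Mcm6 by 2.58. All 10 histone genes with over 3 UMIs in both were higher, by a median of 3.08. Since the choice was made on cycle genes, these values describe it and were not tested. Of lists outside the cycle, red cell and mast cell markers (3 genes with enough UMIs) had a median of 3.58, granule genes 1.79 (5 of 7 over 2-fold) and acinar markers (3 genes) -2.89, each from few genes. The cDC1 list differed by a median of 0.68, MHC class II by 0.30, macrophage genes by -0.31 (0 of 11 higher), type I interferon genes by -0.45 (1 of 18 higher), chemokines by -0.57 and monocyte genes by -1.23. Within the cDC1 class alone the cDC1 list had a median of -0.29, with 0 of 11 higher in positive cells. Median depth differed between positive and negative cells as given above, and its part in these values was not tested.

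Lineage was read from at least 2 UMIs of Xcr1 and Clec9a together (cDC1 class), Cd209a (cDC2 class), Siglech (plasmacytoid class), C1qa (C1q class) or Ly6c2 (Ly6c2 class). The cDC1 class held 13 and 5 positive cells with AT38 and 8 and 8 with vehicle. The cDC2 class held 3 and 3 with AT38 and 4 and 9 with vehicle. The C1q class held 12 and 7 with AT38 and 9 and 15 with vehicle. Cells that reached none of these thresholds, called cells with no lineage gene though they can hold single UMIs, numbered 18 and 26 with AT38 and 11 and 15 with vehicle. The Ly6c2 class held 1 and 1 cells with AT38 and 5 and 4 with vehicle. A further 4 and 3 cells with AT38 and 3 and 3 with vehicle met several classes. No cell fell in the plasmacytoid class alone: 0 of 51 and 0 of 45 cells with AT38 allow a share, at 3 counts over the total, of up to 5.88% and 6.67%, and 0 of 40 and 0 of 54 with vehicle up to 7.50% and 5.56%.

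Free RNA also gives such UMIs, so the same thresholds were read in cells that should lack the genes. Among 1182 Cd79a-positive B cells (median 3275.5 UMIs) 0.169% met the cDC1, 0.338% the cDC2, 0.931% the C1q and 2.37% the Ly6c2 threshold. Among 4264 T cells (median 6035.5 UMIs) the shares were 2.23%, 2.65%, 9.94% and 15.0%; T cells can express Ly6c2 themselves. Positive cells (median 20198 UMIs) met them in 21.1%, 11.6%, 27.4% and 10.0%. The Ly6c2 share of positive cells thus lay below that of T cells and is not read as a lineage share by itself.

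Marker levels were set beside each class. The cDC1 class, pooled over libraries, had 1415 CPM of Irf8 (a transcription factor required for cDC1), 818 CPM of Wdfy4 (needed for cross-presentation), 202 CPM of Batf3 and 248 CPM of Flt3. The cDC2 class had 580 CPM of Clec10a, 948 CPM of Mgl2 (both lectins) and 119 CPM of Irf4, with 31.8 CPM of Irf8. The C1q class had 6299.8 CPM of Apoe, 502 CPM of the mannose receptor gene Mrc1, 422 CPM of Csf1r and 219 CPM of Adgre1 (F4/80), and 10.2 CPM of Flt3. Across all positive cells Flt3 was 92.5 CPM, against 62.4 CPM in negative cells, and 57.5% of its UMIs were in the cDC1 class.

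The Ly6c2 class went against a dendritic or macrophage name. Its H2-Ab1 level was 34.1 CPM, Flt3 was 0, and the alarmin S100a8 reached 103733 CPM, with 34469.6 CPM of Ngp and 25953 CPM of Camp, both secondary granule genes of developing neutrophils. Of its 11 cells, 6 had at least 10 UMIs of Ngp, Camp and Ltf together. These 6 granule-gene cells were 0 and 0 with AT38 and 3 and 3 with vehicle, and all 6 were S/G2-high.

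Of the 70 cells with no lineage gene, 7 were chosen by Lyz2 alone and the rest through H2-Ab1. They had 862 CPM of the migration receptor Ccr7, 771 CPM of Ccl22 and 426 CPM of Fscn1, genes of mature migratory dendritic cells. Of these cells, 21 had at least 10 UMIs of those 3 genes together. Over all classes there were 36 such mature cells, 6 and 13 with AT38 and 9 and 8 with vehicle. Only 11 of the 36 were S/G2-high. In the S/G2-high cells without a lineage gene, Ccr7 was 102 CPM and Ccl22 was 87.4 CPM.

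**Figure D2:**
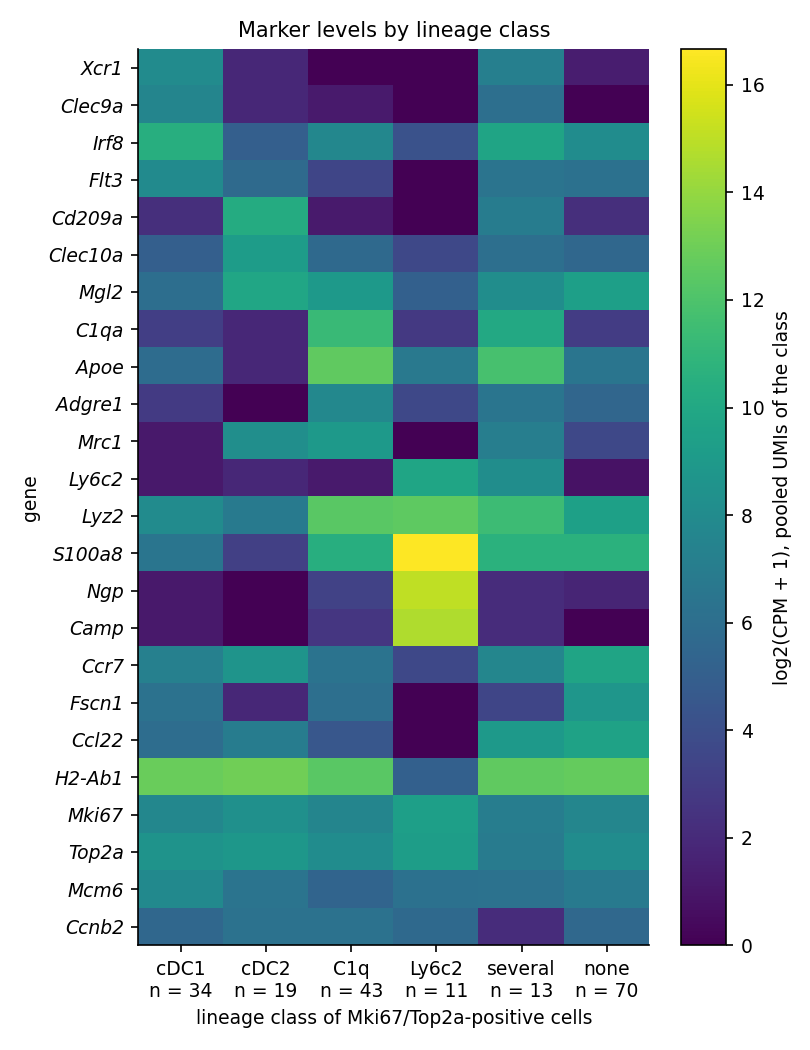
Marker genes (rows) in each lineage class of Mki67/Top2a-positive cells (columns), with the colour giving log2(CPM + 1) of UMIs pooled over the 4 libraries. Xcr1 and Clec9a stand out in the cDC1 class, Cd209a in the cDC2 class, C1qa and Apoe in the C1q class, and S100a8, Ngp and Camp in the Ly6c2 class.

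Cells with high cycle genes were counted in each class, without a test. In the cDC1 class 30 of 34 cells (88.2%) were S/G2-high, against 8 of 11 in the Ly6c2 class (72.7%), 24 of 43 in the C1q class (55.8%), 6 of 13 meeting several classes (46.2%), 30 of 70 with no lineage gene (42.9%) and 8 of 19 in the cDC2 class (42.1%). By library the cDC1 class had 12 of 13 and 4 of 5 with AT38 and 7 of 8 and 7 of 8 with vehicle, and the C1q class 5 of 12 and 3 of 7 with AT38 and 4 of 9 and 12 of 15 with vehicle. Of negative cells the limit was passed by 5.83% in the cDC1 class, 2.14% in the C1q class and 0.664% in the Ly6c2 class. Of the 30 S/G2-high cDC1-class cells, 12 passed by S phase genes alone, 6 by G2 genes alone and 12 by both. Of the 24 in the C1q class, 2 passed by S phase genes alone, 15 by G2 genes alone and 7 by both.

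Summed levels were set beside these counts. The cDC1 class had 3330 CPM of S phase genes and 4047 CPM of G2 genes, the C1q class had 1056 CPM and 3515 CPM, the cDC2 class 1313 CPM and 4480.3 CPM, and the Ly6c2 class 2294 CPM and 8744 CPM. The log2 ratio of S phase to G2 levels in the cDC1 class was -0.07 and -1.01 with AT38 and 0.21 and -0.54 with vehicle. In the C1q class it was -1.37 and -1.73 with AT38 and -2.84 and -1.61 with vehicle. The cDC1 class was higher in 4 of 4 libraries, by 1.53 ± 1.04 (SD, n = 4 libraries), with an exact paired permutation p of 0.125, the smallest that 4 pairs allow. Mcm6 was at 238 CPM in the cDC1 class and 40.8 CPM in the C1q class, and Mcm3 at 218 and 73.9 CPM, whereas Birc5 was at 133 and 138 CPM. The ratio was compared after these sums had been seen.

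The study's design compares AT38 with vehicle. Positive cells were 1.40% of kept barcodes in each AT38 library (mean 1.40 ± 0.00384%, SD, n = 2) and 1.33% and 1.08% in the vehicle libraries (1.21 ± 0.177%, SD, n = 2). The groups did not overlap, and the exact two-sided permutation p was 0.333, the smallest that 2 against 2 libraries allow. Of the myeloid gate, which held 665 and 525 cells with AT38 and 475 and 846 with vehicle, positive cells were 8.12 ± 0.638% with AT38 and 7.40 ± 1.44% with vehicle (SD, n = 2; exact permutation p = 0.667). Counting S/G2-high positive cells in place of all positive cells turned both differences to below 0, at -0.0659 and -0.654 percentage points.

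The lineage mix was given as percent of positive cells. The cDC1 class was 18.3 ± 10.2% with AT38 and 17.4 ± 3.67% with vehicle, and the C1q class 19.5 ± 5.64% with AT38 and 25.1 ± 3.73% with vehicle (SD, n = 2 each). The groups overlapped in the cDC1 class, and the exact permutation p values were 1.00 and 0.667. The cDC2 class was 6.27 ± 0.555% with AT38 and 13.3 ± 4.71% with vehicle, the Ly6c2 class 2.09 ± 0.185% with AT38 and 9.95 ± 3.60% with vehicle, and cells with no lineage gene 46.5 ± 15.9% with AT38 and 27.6 ± 0.196% with vehicle. In these 3 classes the libraries of the groups did not overlap, each with an exact permutation p of 0.333 (0.778 adjusted over 7 classes). Of the Ly6c2-class cells, 0 of 1 and 0 of 1 with AT38 and 3 of 5 and 3 of 4 with vehicle were granule-gene cells. S/G2-high cells of the cDC2 class numbered 0 and 2 with AT38 and 1 and 5 with vehicle, counts that overlap. In a thinned alternative, Mki67 and Top2a alone were drawn down to 2000 UMIs per cell, and any remaining UMI of either made a cell positive. Gate and lineage genes were still read at full depth, so this is another rule and not the same rule at equal depth. It left out 28 and 24 gate cells with AT38 and 34 and 44 with vehicle. The cDC2 class was then 8.12 ± 4.23% with AT38 and 8.31 ± 5.32% with vehicle, a difference of -0.188 percentage points, smaller than its spread.

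Of the gate cells in the cDC1 class, 13 of 56 (23.2%) and 5 of 44 (11.4%) were positive with AT38, against 8 of 23 (34.8%) and 8 of 29 (27.6%) with vehicle. The exact binomial 95% intervals were 12.98 to 36.4% and 3.79 to 24.6% with AT38 and 16.4 to 57.3% and 12.7 to 47.2% with vehicle, and all 4 share a range. The means were 17.3 ± 8.38% with AT38 and 31.2 ± 5.09% with vehicle (SD, n = 2; exact permutation p = 0.333, 0.500 adjusted over 6 classes). The number of positive cDC1-class cells overlapped between groups, while the class made up 8.42% and 8.38% of the gate with AT38 and 4.84% and 3.43% with vehicle. Under the thinned rule given above, the shares were 9.17 ± 9.76% with AT38 and 18.6 ± 7.84% with vehicle. In the C1q class positive cells were 6.79 ± 1.21% with AT38 and 6.82 ± 0.877% with vehicle (exact permutation p = 1.00), and in the cDC2 class 6.17 ± 1.15% with AT38 and 10.5 ± 2.31% with vehicle (exact permutation p = 0.333). In the Ly6c2 class they were 1.11% and 1.45% with AT38 and 8.77% and 3.23% with vehicle. Cells with no lineage gene went the other way, at 7.14% and 11.7% with AT38 and 5.39% and 4.39% with vehicle. Cells meeting several classes overlapped between groups.

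**Figure D3:**
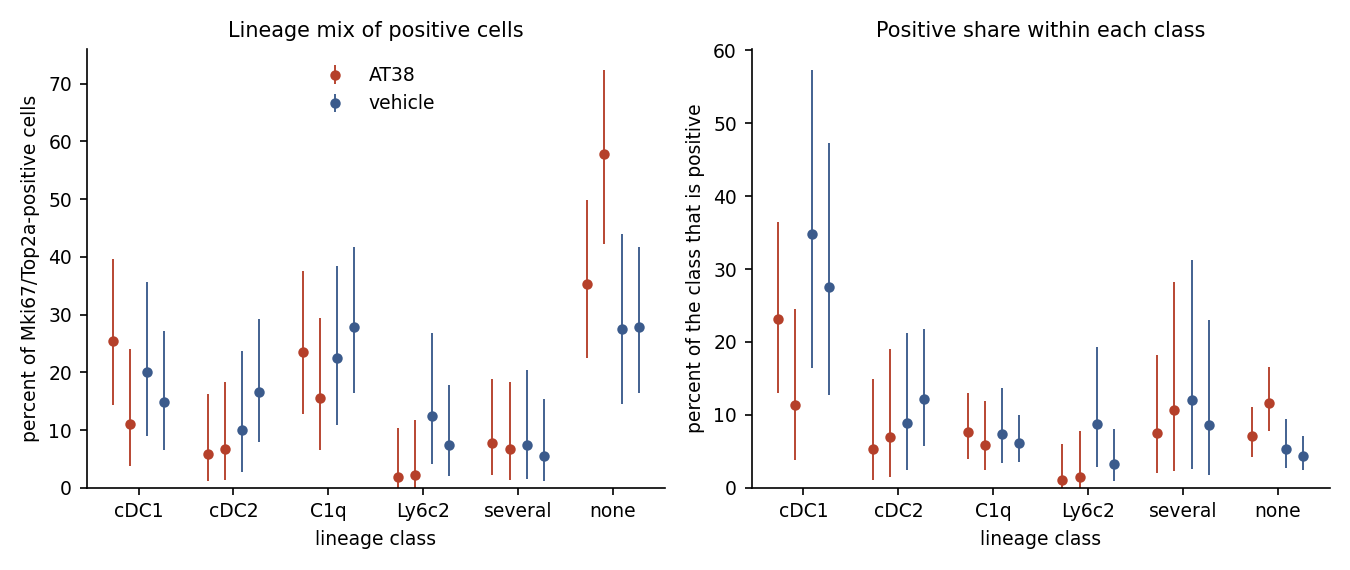
Percent of Mki67/Top2a-positive cells in each lineage class, and percent of each class that is positive, with 1 point per library, exact binomial 95% intervals as bars, and AT38 left of vehicle. The cDC1 class is positive in 23.2% and 11.4% of cells with AT38 and in 34.8% and 27.6% with vehicle.

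For genes, UMIs of positive cells were summed per library and tested with edgeR's quasi-likelihood test over 7685 genes, adjusted by Benjamini-Hochberg. In such sums, fewer cells expressing a gene and less RNA per cell cannot be told apart. At an adjusted p under 0.05, 4 genes were called (0.052%), 1 higher (0.013%) and 3 lower (0.039%) with AT38. Without adjustment 386 genes (5.02%) passed a p of 0.05, 186 higher and 200 lower. Among all tested genes, both AT38 libraries lay above both vehicle libraries in 15.8% and below both in 17.9%.

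Cxcl9, an interferon gamma-induced chemokine that draws CXCR3+ T cells, was the gene that rose. It had 322 and 382 CPM in AT38 positive cells, against 139 and 121 CPM in vehicle positive cells. Both AT38 libraries were above both vehicle libraries, with a log2 fold change of 1.46 ± 0.19 (SE) and an edgeR adjusted p of 0.0107. Its UMIs came from 51 cells, and 57.3% of them from 5 cells. The single highest cell gave 121 of 319 and 153 of 336 UMIs in the AT38 libraries and 56 of 119 and 53 of 125 in the vehicle libraries, and neither of those AT38 cells was S/G2-high. In the C1q class Cxcl9 was at 847 and 194 CPM with AT38 and 131 and 94.8 CPM with vehicle, and in cells with no lineage gene at 185 and 292 CPM with AT38 and 273 and 220 CPM with vehicle. In S/G2-high cells alone its log2 fold change was 0.93 (edgeR adjusted p = 0.592), and without the granule-gene cells of the vehicle libraries, described next, it was 1.37 (edgeR adjusted p = 0.114). In negative cells Cxcl9 had 277 and 275 CPM with AT38 and 92.2 and 230 CPM with vehicle, a log2 fold change of 0.74 ± 0.59 (edgeR adjusted p = 0.762), and the difference between the 2 effects was 0.60 (edgeR interaction adjusted p = 1.00).

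Ltf, which encodes the granule protein lactoferrin, had 4.03 and 2.27 CPM in AT38 positive cells, against 778 and 516 CPM in vehicle positive cells (log2 fold change -7.59 ± 0.37, edgeR adjusted p = 1.08e-06). Of its UMIs, 99.2% were in the 6 granule-gene cells of the vehicle libraries. Cd177, a surface protein of neutrophils, had 11.1 and 14.8 CPM with AT38 and 107 and 66.9 CPM with vehicle (log2 fold change -2.72 ± 0.35, edgeR adjusted p = 0.0103), and 80.0% of its UMIs were in those cells. Without them Ltf was too low to test, and Cd177 was 0.83 higher (edgeR adjusted p = 0.999). Neutrophil markers summed to 3115 and 4974 CPM with AT38 and 29295 and 11461 CPM with vehicle. Ltf is 1 of the 3 genes that define granule-gene cells, so its share in them is partly set by that definition; Cd177 is not among them.

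The third fall, Gzmc, is named after its value was seen, since its mean was low. This granzyme gene of cytotoxic lymphocytes had 0 and 0 UMIs with AT38 and 32 and 27 with vehicle, at least 19.5-fold lower with AT38 against a floor of 3 counts over the group (edgeR adjusted p = 0.0103). The 59 UMIs came from 2 cells, 1 in each vehicle library. These cells also had 13 and 16 UMIs of lymphoid genes outside the gate and held most of the UMIs of Xcl1, a lymphocyte chemokine. Without the 12 positive cells that had at least 2 such UMIs, Gzmc was not tested and 3 genes were called.

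**Figure D4:**
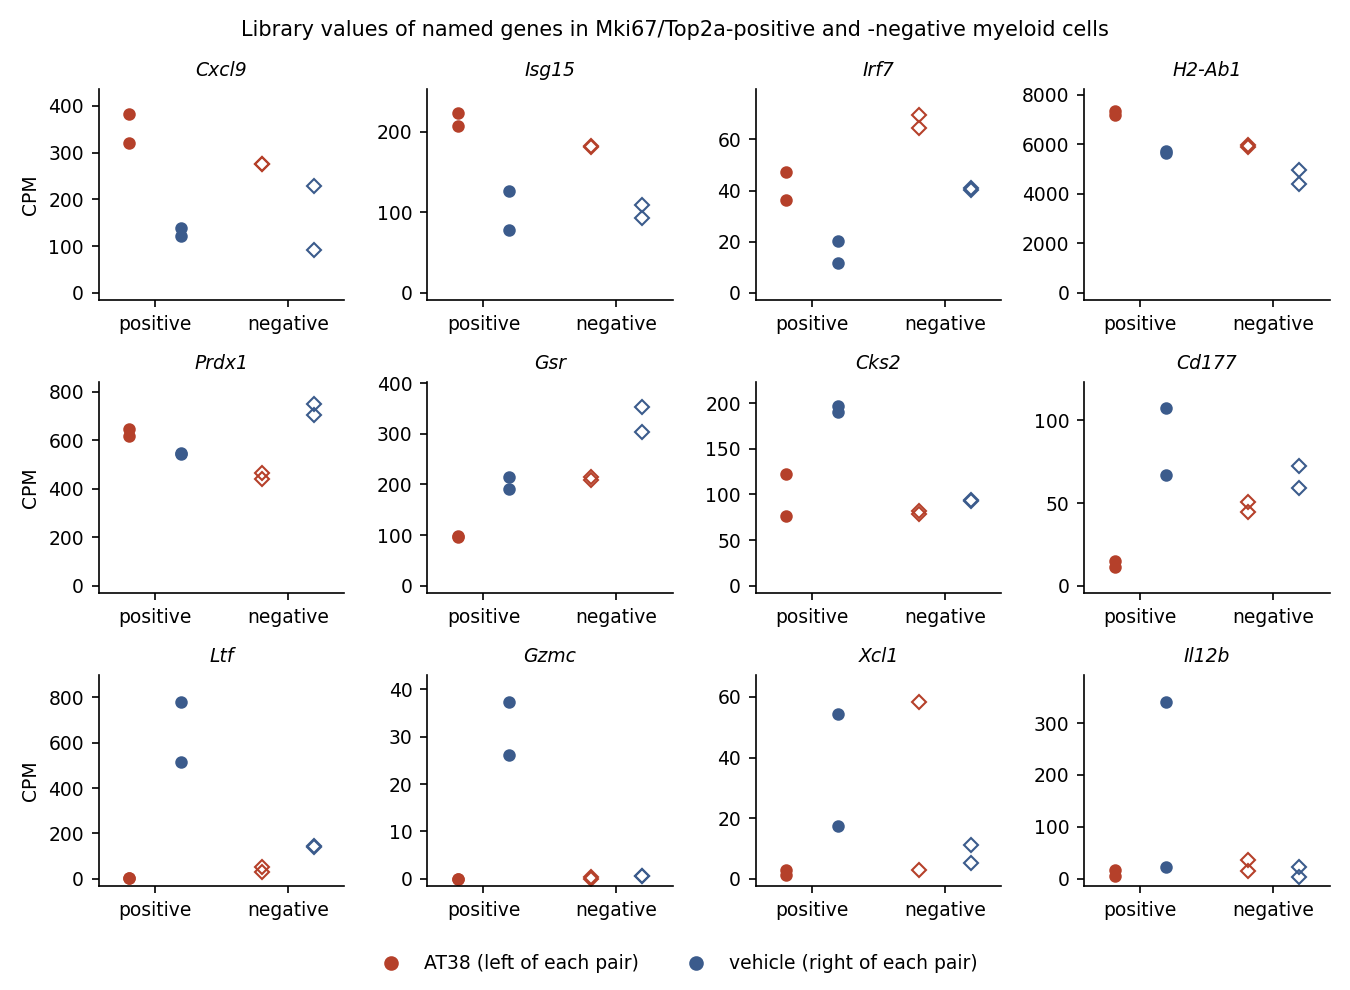
CPM of named genes in each library for Mki67/Top2a-positive and -negative cells, on linear axes from 0, with AT38 left of vehicle in each kind of cell. In positive cells Cxcl9 is at 322 and 382 CPM with AT38 and 139 and 121 CPM with vehicle.

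The cycle genes themselves gave no called difference between the groups. Of 26 S phase genes, 0 passed in either direction; both AT38 libraries were above both vehicle libraries in 4 and below both in 4, with a median log2 fold change of -0.01 against 0.00 over all tested genes. Pcna, the replication clamp, had 233 and 200.1 CPM with AT38 and 183 and 164 CPM with vehicle (log2 fold change 0.34, edgeR adjusted p = 0.997). Of 32 G2 and mitosis genes, 0 passed. Both AT38 libraries lay below both vehicle libraries in 10 and above in 0 (over all tested genes 17.9% and 15.8%). The median was -0.30. Cks2, a subunit of cyclin-dependent kinase complexes, had 122 and 76.2 CPM with AT38 and 190 and 197 CPM with vehicle (-0.94 ± 0.22, edgeR adjusted p = 0.253). Plk1, Cdc20 and Ccnb1, all needed for mitosis, differed by -1.19, -1.05 and -0.89 with edgeR adjusted p from 0.792 to 0.893. Without the granule-gene cells the G2 median was -0.11 and the S phase median 0.12. Summed S phase genes were 2092 and 1674 CPM with AT38 and 1885 and 1920.1 CPM with vehicle, which overlap, and G2 genes 3633 and 3127 CPM with AT38 and 3528 and 4370.3 CPM with vehicle, which also overlap. Mki67 and Top2a, read by the choice, differed by -0.32 and 0.01.

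Of 21 tested cyclin, E2F and inhibitor genes, 0 passed, with 4 above and 4 below both vehicle libraries (over all tested genes 15.8% and 17.9%). Ccnd1 (cyclin D1, which links growth signals to the cycle) had 306 and 156 CPM with AT38 and 121 and 146 CPM with vehicle (0.80, edgeR adjusted p = 0.852); in negative cells it was higher with AT38 by 0.53 (edgeR adjusted p = 0.00906). Of 9 growth factor receptor genes 0 passed and 0 had groups that did not overlap. Flt3 had 111 and 84.2 CPM with AT38 and 78.1 and 94.0 CPM with vehicle (0.20 ± 0.22, edgeR adjusted p = 0.997). Kit, the receptor for stem cell factor, had 104 and 87.6 CPM with AT38 and 105 and 83.4 CPM with vehicle, and Csf2rb, the shared chain of the GM-CSF receptor, had 311 and 466 CPM with AT38 and 304 and 367 CPM with vehicle.

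Genes of the cDC1, cDC2, macrophage and monocyte lists passed in neither direction in positive cells, unlike the granule gene Ltf given above. Of 11 cDC1 genes, 0 passed and the median was 0.07. Xcr1 had 89.7 and 20.5 CPM with AT38 and 95.5 and 64.0 CPM with vehicle, and Clec9a 68.6 and 17.1 CPM with AT38 and 44.3 and 54.3 CPM with vehicle. Both overlap between groups. In negative cells 5 of 11 cDC1 genes were called higher with AT38 (background 0.778% of 10545 genes), with a median of 0.60; Clec9a was higher there by 1.49 (edgeR adjusted p = 0.000238). The interaction test called none of the 11. Cd209a had 58.5 and 76.2 CPM with AT38 and 127 and 273 CPM with vehicle (-1.55, edgeR adjusted p = 0.499). Of 11 macrophage genes 0 passed and 5 lay above both vehicle libraries (over all tested genes 15.8%). Their median was 0.36 in all positive cells and -0.47 in S/G2-high cells. C1qa had 865 and 522 CPM with AT38 and 492 and 509 CPM with vehicle (0.49, edgeR adjusted p = 0.899). Ly6c2 had 48.4 and 43.2 CPM with AT38 and 120.0 and 55.2 CPM with vehicle.

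No type I interferon gene passed the test in positive cells. Of 20 listed genes 12 were tested. Both AT38 libraries were above both vehicle libraries in 5 and below both in 1 (over all tested genes 15.8% and 17.9%). Their median log2 fold change was 0.66, and 0.58 without the granule-gene cells. Isg15, a ubiquitin-like antiviral protein, had 207 and 223 CPM with AT38 and 127 and 77.5 CPM with vehicle (1.09 ± 0.24, edgeR adjusted p = 0.253). Irf7, the factor that amplifies type I interferon, had 47.4 and 36.4 CPM with AT38 and 11.7 and 20.4 CPM with vehicle (1.38 ± 0.35, edgeR adjusted p = 0.329). Bst2, or tetherin, had 255 and 202 CPM with AT38 and 136 and 147 CPM with vehicle (0.71, edgeR adjusted p = 0.396). In negative cells 5 of 18 tested genes were called higher and 0 lower (background 0.778% and 1.39%), with a median of 0.54. Isg15, Irf7 and Bst2 were among the 5 called higher, by 0.83, 0.71 and 0.58. Ifnb1 itself had 3 and 0 UMIs in AT38 positive cells and 1 and 1 in vehicle positive cells, and was not tested there.

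Of 19 tested interferon gamma genes, 1 passed (Cxcl9), with a median of 0.26. Of these genes 7 lay above both vehicle libraries and 1 below (over all tested genes 15.8% and 17.9%). In negative cells 5 of 20 were called higher (background 0.778%), with a median of 0.38. Of 11 MHC class II genes 0 passed and 9 lay above both vehicle libraries (over all tested genes 15.8%), with a median of 0.37. H2-Aa had 6924 and 6839 CPM with AT38 and 5421 and 5343 CPM with vehicle (0.37 ± 0.11, edgeR adjusted p = 0.514). The choice of cells read H2-Ab1, which is counted among the 11 class II genes and among the 9. By Lyz2 alone 3 and 3 cells with AT38 were chosen, against 8 and 10 with vehicle. Among cells chosen through H2-Ab1 the MHC class II median was 0.20. By class, H2-Ab1 had 7173 and 7392 CPM with AT38 and 6791 and 7944 CPM with vehicle in the cDC1 class. In the cDC2 class it had 9344 and 8094 CPM with AT38 and 9491 and 8265 CPM with vehicle. Both overlap, as does the C1q class (6735 and 5353 CPM with AT38, 5608 and 3961 CPM with vehicle). In cells with no lineage gene it had 8313 and 7783 CPM with AT38 and 5780 and 4618 CPM with vehicle. Of 14 MHC class I genes 0 passed and 10 lay above both vehicle libraries (over all tested genes 15.8%), with a median of 0.25.

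**Figure D5:**
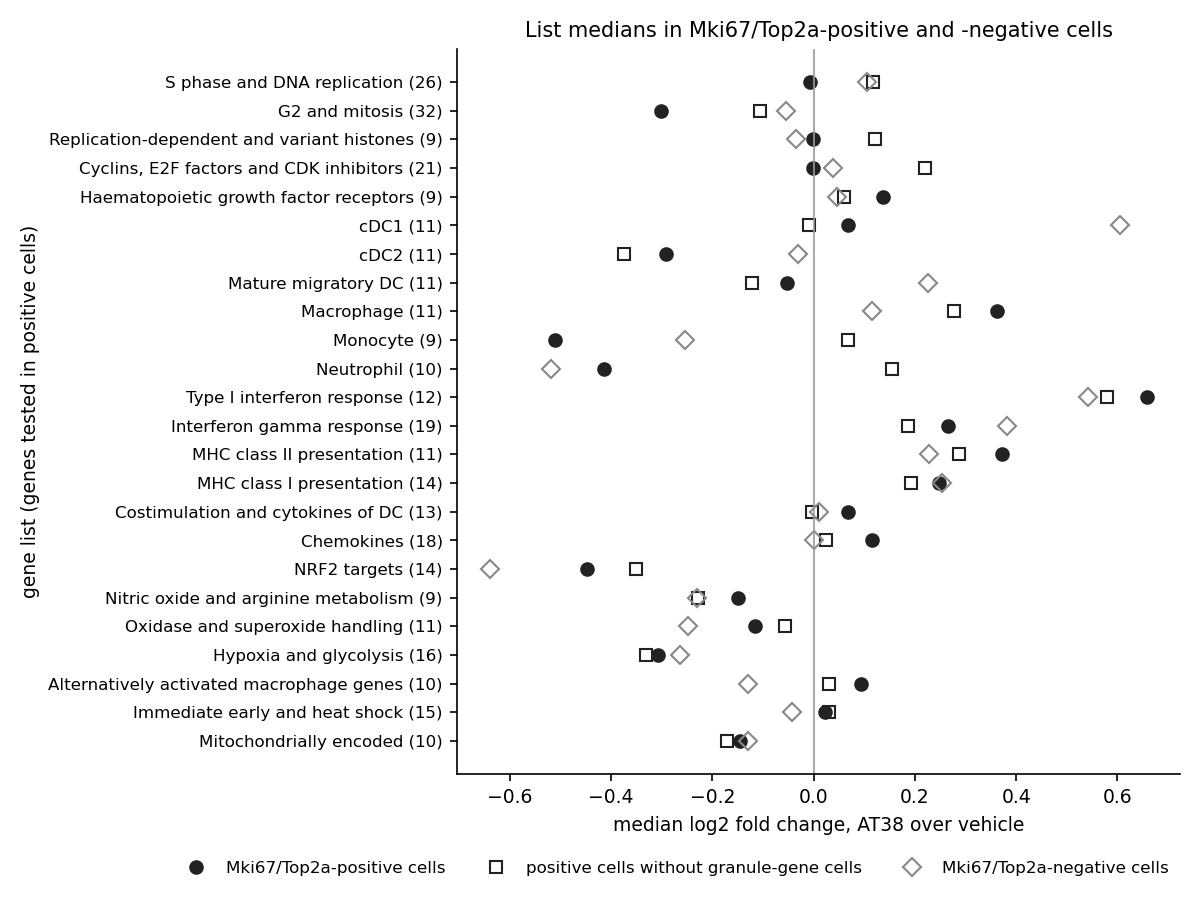
Median log2 fold change, AT38 over vehicle, of each gene list in Mki67/Top2a-positive cells, in positive cells without the granule-gene cells, and in negative cells, with 0 marked. Type I interferon genes lie at 0.66, 0.58 and 0.54, and NRF2 targets at -0.45, -0.35 and -0.64.

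NRF2 targets, the antioxidant genes that nitrosative and oxidative stress induce, did not pass in positive cells. Of 16 listed genes 14 were tested, 0 passed in either direction, and the median was -0.45. Of the tested genes 6 lay below both vehicle libraries and 2 above (over all tested genes 17.9% and 15.8%). Gsr, glutathione reductase, had 95.8 and 97.8 CPM with AT38 and 214 and 192 CPM with vehicle (-1.05 ± 0.19, edgeR adjusted p = 0.127), and 21.1% of its UMIs were in granule-gene cells. In S/G2-high cells Gsr fell by 1.55 on the log2 scale (edgeR adjusted p = 0.0494), 1 of 11 genes called there of 6353 (0.173%). Of its UMIs in S/G2-high cells, 41.5% were in the granule-gene cells. Without those it was -0.51 in S/G2-high cells and -0.57 in all positive cells (edgeR adjusted p = 1.00 and 0.999). Pgd, an enzyme of the pentose phosphate pathway, had 85.7 and 92.1 CPM with AT38 and 174 and 129.9 CPM with vehicle (-0.75, edgeR adjusted p = 0.533). Hmox1, haem oxygenase, had 65.5 and 168 CPM with AT38 and 40.8 and 32.0 CPM with vehicle, but 119 of the 148 UMIs of AT38 library 2 were in 1 cell. In negative cells 10 of 14 were called lower (background 1.39%), with a median of -0.64, Gsr by -0.65.

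Of 9 tested nitric oxide and arginine genes 0 passed, with a median of -0.15. Nos2, inducible nitric oxide synthase, had 30 and 2 UMIs with AT38 and 3 and 0 with vehicle, in 4 cells, and was not tested. Arg1, arginase, had 169 and 13.6 CPM in AT38 positive cells and 256 and 128 CPM in vehicle positive cells (-1.04 ± 1.40, edgeR adjusted p = 0.997). In negative cells Arg1 had 285 and 202 CPM with AT38 and 893 and 813 CPM with vehicle (-1.81, edgeR adjusted p = 0.00854). Of 16 hypoxia and glycolysis genes 0 passed and 8 lay below both vehicle libraries (over all tested genes 17.9%), with a median of -0.31. Eno1, the glycolytic enolase, had 220 and 273 CPM with AT38 and 360.0 and 320 CPM with vehicle. Ccl8, a monocyte chemokine made by macrophages, had 387 and 133 CPM with AT38 and 6.99 and 34.9 CPM with vehicle (3.59 ± 1.04, edgeR adjusted p = 0.974), with 87.3% of its UMIs in the C1q class. Fn1, fibronectin, had 56.5 and 156 CPM with AT38 and 308 and 450 CPM with vehicle (-1.81, edgeR adjusted p = 0.936). Rnf128, a ubiquitin ligase, had 0 and 3 UMIs with AT38 and 3 and 20 with vehicle.

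Whether the AT38 effect differed between positive and negative cells was tested as an interaction, since both come from the same libraries. Of 10086 genes 4 were called (0.0397%), against 229 of 10545 (2.17%) called for AT38 in negative cells alone. Positive sums held 3761143 UMIs of 190 cells and negative sums 18831407 UMIs of 2058 cells. The counts come from unlike tests and depths, so few interaction calls do not show that the effects were alike. Prdx1, a peroxiredoxin that removes peroxide and peroxynitrite, had 618 and 645 CPM in AT38 positive cells and 544 and 548 CPM in vehicle positive cells, and 442 and 463 CPM in AT38 negative cells and 749 and 704 CPM in vehicle negative cells. Its effects differed by 0.94 ± 0.14 (SE, edgeR adjusted p = 0.0387). It fell by 0.69 in negative cells (edgeR adjusted p = 0.000467) and had a value of 0.23 in positive cells (edgeR adjusted p = 0.997). In AT38 library 2, 258 of the 567 Prdx1 UMIs of positive cells were in the C1q class. There it had 728 and 1726 CPM with AT38 and 568 and 720 CPM with vehicle. In positive cells with no lineage gene it had 535 and 384 CPM with AT38 and 742 and 678 CPM with vehicle. The cDC1 class overlapped between groups, and the cDC2 class had 616 and 543 CPM with AT38 and 522 and 397 CPM with vehicle. The part of the class mix was not tested. The other called genes were Ltf, Il12b and Xcl1, whose values rest on few cells and are given with the results that stood out.

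Markers of other cell types were summed over positive cells. Epithelial markers (8 genes, 1 at 0) summed to 183 and 264 CPM with AT38 and 1099 and 590.3 CPM with vehicle, which do not overlap; the vehicle sums include 950 and 458 CPM of Lcn2, a gene that neutrophils also express, with 96.3% of its UMIs in granule-gene cells. T cell markers (11 genes, Cd3e and Cd3d at 0 by the choice) summed to 49.4 and 17.1 CPM with AT38 and 87.4 and 62.0 CPM with vehicle, and NK and innate lymphoid markers (10 genes) to 46.4 and 17.1 CPM with AT38 and 142 and 90.1 CPM with vehicle. B cell markers (10 genes, Cd79a at 0 by the choice) summed to 110 and 80.7 CPM with AT38 and 101 and 83.4 CPM with vehicle. Of these, Ighm, an immunoglobulin chain gene, was at 101 CPM in S/G2-high cells pooled, and between 33.9 and 136 CPM in every class there. Red cell and mast cell markers (8 genes, 3 at 0) summed to 0 and 3.41 CPM with AT38 and 635 and 44.6 CPM with vehicle, with 3 cells holding at least 2 UMIs of the mast cell proteases Cpa3 and Tpsb2. Fibroblast and endothelial markers (8 genes) summed to 208 and 28.4 CPM with AT38 and 23.3 and 21.3 CPM with vehicle. Their part in the AT38 results was not tested, apart from the lymphoid and granule-gene cells left out above.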

How the data were processed

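Single-cell RNA was measured in 4 libraries, 2 from AT38-treated and 2 from vehicle-treated mice. The authors deposited raw UMI counts of 31053 genes in each barcode. Cell Ranger 3.1.0 and the build mm10 are named in the submitters' processing notes. The annotation release is not given in the sources used here. Of 18001 barcodes, 876 had under 200 genes and 3142 over 10% mitochondrial UMIs (some both), and 14855 were kept. Doublets were scored with scrublet in scanpy 1.11.5 and kept in the main values. Its automatic threshold called at most 0.0564% per library, so the alternative removed the highest scores at 0.8% per 1000 barcodes.

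The deposited counts were summed per library over the chosen cells. They were tested with edgeR 4.0.16 (glmQLFit robust, glmQLFTest, two-sided, TMM, filterByExpr) in R 4.3.3, with Benjamini-Hochberg adjustment over all tested genes and a threshold of 0.05. The interaction fit had library as a block. Errors printed as SE come from the model. Shares were compared by exact permutation over libraries (scipy 1.17.1), with exact Clopper-Pearson 95% intervals. Scripts were tested on simulated data. The members and the gene lists were chosen with earlier results of these data known. Genes were named if called, at a mean of at least 20 CPM and with groups apart (the 12 largest rises and 12 largest falls), and besides these came up to 4 members of each list with the smallest p, the genes read by the gate and lineage classes, and a few genes of interest (Flt3, Nos2, Arg1, Ifnb1, Cxcl9, Ccl8, Fn1, Rnf128). Some list members are named for their known role. DESeq2 1.42.0, other scalings, filters, gates and left-out libraries were alternatives. The S/G2-high measure and the granule-gene cells were set after seeing the data. Promoter windows come from RefSeq tables.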

Additional observations from a re-analysis of the deposited data

Results flagged for a closer look

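In 4 genes the effect of AT38 differed between positive and negative cells of the same libraries by edgeR's interaction test. Prdx1 had a difference of effects of 0.94 on the log2 scale (edgeR adjusted p = 0.0387). In 5 of 9 alternatives it lost the call, with values from 0.87 to 1.02: without vehicle library 1, without vehicle library 2, in S/G2-high cells, without granule-gene cells and without cells with lymphoid UMIs.

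Ltf differed by -5.75 ± 0.40 (edgeR adjusted p = 3.05e-05). It had 4.03 and 2.27 CPM in AT38 positive cells and 778 and 516 CPM in vehicle positive cells, and 51.3 and 27.9 CPM in AT38 negative cells and 140.4 and 145 CPM in vehicle negative cells. Without the granule-gene cells the difference was 0.50.

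Xcl1 differed by -5.95 ± 0.59 (edgeR adjusted p = 0.000399). It had 58.3 and 2.94 CPM in AT38 negative cells and 5.04 and 11.2 CPM in vehicle negative cells, and 227 of the 303 UMIs of AT38 library 1 there were in its C1q class. In positive cells it had 3.03 and 1.14 CPM with AT38 and 17.5 and 54.3 CPM with vehicle, where 2 cells, the same that held Gzmc, gave 15 of 15 and 52 of 56 UMIs. Without AT38 library 1 the value was -3.37 and no longer called, and without cells with lymphoid UMIs it was not tested.

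Il12b, a subunit of interleukin 12, differed by -4.76 ± 0.43 (edgeR adjusted p = 0.000339). It had 5.04 and 17.1 CPM in AT38 positive cells and 22.1 and 340 CPM in vehicle positive cells, and 15.0 and 35.8 CPM in AT38 negative cells and 4.204 and 23.1 CPM in vehicle negative cells. Of its UMIs, 90.5% were in 5 cells, and 1 cell of vehicle library 2 held 140 of that library's 351. Without vehicle library 2 the value was -3.59, and in S/G2-high cells -1.77, neither called.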

How the results depend on the processing

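The count of genes called for AT38 in positive cells was 4. It was 9 with DESeq2 (4023 genes without an adjusted p), 97 without a filter on low counts, 14 without the cDC1 class, 11 in S/G2-high cells, and 19 to 28 when 1 library was left out (28 and 22 without AT38 library 1 and 2, 19 and 28 without vehicle library 1 and 2; the lone sample is then assumed to vary like the other group). It was 0 with edgeR at Mki67 and Top2a of at least 3 (306 genes at an unadjusted p under 0.05), among cells chosen through H2-Ab1 (265) and without granule-gene cells (312); DESeq2 was not run on these. In S/G2-high cells without granule-gene cells it was 1 (S100a8, named after its value was seen). With replicate number as a block it was 16; same-numbered samples had a correlation of deviations of 0.01, so the numbers were not taken as pairs. Interaction calls, 4, were 52 without the filter, 7 to 18 with 1 library left out, and 2 both without granule-gene cells and without cells with lymphoid UMIs.

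Cxcl9 kept its direction in every alternative run but was not called at Mki67 and Top2a of at least 3 (1.55), through H2-Ab1 (1.28), in S/G2-high cells (0.93), without granule-gene cells (1.37) or with both (0.79). Cd177 turned to 0.83 without granule-gene cells, and the Ltf interaction to 0.50.

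Differences in shares (AT38 minus vehicle, percentage points) could not be called at any setting, since these libraries allow no exact permutation p under 0.333. Several turned sign. Positive cells of kept barcodes ranged from 0.0676 to 0.318 with 1 library left out, and were -0.0659 for S/G2-high cells. Of the gate they ranged from -0.301 to 1.74, and were -0.0161 at a sum of at least 3 and -0.654 for S/G2-high cells. The cDC1 share of positive cells ranged from -6.30 to 8.08, and was -2.49 at 1 lineage UMI, -0.177 without lymphoid-UMI cells and -0.353 without granule-gene cells. The several-class share ranged from -0.245 to 1.70, and was -0.247 with doublets removed, -1.46 at a sum of at least 3, -3.20 thinned and -4.46 for S/G2-high cells. The positive share of the C1q class ranged from -0.886 to 0.825, and was 0.191 at 20% mitochondrial UMIs, 0.0171 with doublets removed, 0.391 at 1 lineage UMI and 1.01 without lymphoid-UMI cells. That of the several class ranged from -2.87 to 0.559, and was 2.19 at 1 lineage UMI; that of the cDC2 class was 0.758 thinned. With 1 library left out, other differences kept their sign: cells with no lineage gene ranged from 7.66 to 30.1, the cDC2 class from -10.4 to -3.73 and the Ly6c2 class from -10.4 to -5.32 among positive cells, and the positive share of the cDC1 class from -19.8 to -7.97. The positive share of cells with no lineage gene ranged from 2.25 to 6.77. Of the Ly6c2-class positive cells with vehicle, 3 and 3 were granule-gene cells. The cause of these changes in shares was not tested. With 40 to 54 positive cells per library, lineage classes of 1 to 15 cells limit every share.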
